A study of Homo sapiens with 12 samples.

Results

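The ABC drug efflux pumps examined here are members of the ABCC family together with ABCG2, chosen by gene symbol as pumps of which some export nucleotide analogues. Of 7 listed symbols, 6 had a row among the 15090 genes of the table: ABCC1, ABCC2, ABCC3, ABCC4, ABCC5 and ABCC10. ABCG2 has no row in the table used here and was not analysed here. RNA was sequenced from MIA PaCa-2, an established human pancreatic cancer cell line labelled wild type, in 12 libraries that form 4 groups of 3. The groups held L-glutamine at 2 mM without gemcitabine, 2 mM with 0.5 µM gemcitabine, 40 mM without gemcitabine, and 40 mM with 0.5 µM gemcitabine, each for 48 h in RPMI medium lacking glutamine to which the stated amount was added. Gemcitabine is a deoxycytidine analogue used against pancreatic cancer, and the series title names glutamine dose and sensitivity to chemotherapy as its question. All groups come from a single cell line, and the submitters call the samples biological triplicates without saying how the cultures were separated, so p-values measure the spread between these samples.

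ABC transporters couple the hydrolysis of ATP to the movement of a substrate across a membrane, and the ABCC pumps studied here, also called multidrug resistance proteins or MRPs, move organic anions out of the cell. Their substrates include drugs that the cell has joined to glutathione, glucuronate or sulfate. For a nucleoside drug such as gemcitabine, the phosphorylated forms made inside the cell are organic anions, and ABCC4 and ABCC5 are known for exporting nucleotide analogues.

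Reads in listed genes numbered 21723094 to 32811746 per library. Levels are given in RPM, reads per 1000000 after the authors' scaling between libraries, and log2 differences are on the scale of log2(RPM + 1). All 6 pumps with a row were tested with limma among 12789 genes, and a pump was called where its adjusted p was under 0.05. The 4 line markers in the table were high in every library, with KRT8 at 1355 to 2357 RPM, KRT18 at 795 to 1603 RPM, KRT19 at 196 to 291 RPM and VIM at 2944 to 3488 RPM, while EPCAM and CDH1 have no row. Among the markers listed for leukocytes, endothelium, fibroblasts, acinar and islet cells and hepatocytes, only CD68 (19.2 to 43.9 RPM) and COL1A2 (582 to 897 RPM) had a mean of at least 1 RPM. In these bulk libraries, fewer cells with a transcript and less of it per cell cannot be told apart.

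The sequences upstream of ABCC2, ABCC4 and ABCC5 are shown because these 3 pumps were called in at least 1 comparison and have an entry in the RefSeq promoter table (GRCh38.p14). Each is the 250 bases before the annotated start, read 5′ to 3′ on the gene's own strand. Of the 6 pumps with a row, 4 have an entry; ABCC1 and ABCC3 have none. Capitals mark matches, on either strand, to any of 6 motifs: TGACNNNGC, the core of the antioxidant response element; GCGTG, the core of the dioxin response element; CACGTG, an E-box; CCAAT, which the factor NF-Y binds; GGGCGG, a GC box; and TATAAA, the usual core of a TATA box. No marked matches overlap one another in these 3 sequences.
ABCC4, chr13:95301452-95301701, minus strand: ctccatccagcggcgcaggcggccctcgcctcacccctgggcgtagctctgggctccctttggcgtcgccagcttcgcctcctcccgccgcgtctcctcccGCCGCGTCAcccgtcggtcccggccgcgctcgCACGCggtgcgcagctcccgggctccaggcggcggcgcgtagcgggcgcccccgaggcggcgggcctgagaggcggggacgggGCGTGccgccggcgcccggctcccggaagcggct
ABCC5, chr3:184017885-184018134, minus strand: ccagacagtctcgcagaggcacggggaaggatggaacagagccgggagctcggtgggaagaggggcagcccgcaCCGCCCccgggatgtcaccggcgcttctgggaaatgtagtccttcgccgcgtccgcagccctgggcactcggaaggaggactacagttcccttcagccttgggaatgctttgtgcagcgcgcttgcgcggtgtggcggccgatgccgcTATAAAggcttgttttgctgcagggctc
ABCC2, chr10:99782390-99782639, plus strand: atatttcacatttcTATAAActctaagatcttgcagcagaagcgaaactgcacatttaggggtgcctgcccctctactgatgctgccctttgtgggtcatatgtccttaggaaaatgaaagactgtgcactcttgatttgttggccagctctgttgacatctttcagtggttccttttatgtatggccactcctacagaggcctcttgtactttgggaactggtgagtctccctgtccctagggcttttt

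The 3 sequences differ most in base composition. That of ABCC4 is 80.4% G and C, higher than in 97.1% of the 35116 promoters in the table, and holds 42 CpG dinucleotides. ABCC5 has 64.8% G and C and 21 CpG, and ABCC2 has 45.6% and a single one. The median over all promoters was 58.0% and 11 CpG. ABCC4 holds 1 antioxidant response element core, 149 bases before the start, and 2 dioxin response element cores, at 117 and 34 bases. ABCC5 holds a GC box 176 bases and TATAAA 28 bases before its start, and ABCC2 holds TATAAA once, 236 bases before its start. Matches are common: 10.9% of all promoters hold TGACNNNGC, 32.2% GCGTG, 6.34% CACGTG, 32% CCAAT, 42.6% GGGCGG and 10.7% TATAAA in the same 250 bases. A match describes letters in this window and says nothing about binding.

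Per length, ABCC2 had the highest level of the 6 pumps and ABCC3 the lowest. Over the 12 libraries, the RPM per kilobase of the longest coding transcript averaged 16.1 for ABCC2 (14.7 to 17.8), 12.8 for ABCC5 (11.5 to 13.8), 5.72 for ABCC4 (5.02 to 6.68), 5.47 for ABCC10 (4.89 to 6.07), 3.02 for ABCC1 (2.67 to 3.56) and 1.28 for ABCC3 (0.823 to 1.57). Neighbours in that order had ranges that did not overlap, except ABCC4 and ABCC10. With the length of all annotated exons instead, an alternative chosen after seeing the data, the order was the same, and ABCC5, whose exons together span 10527 bases against 5921 in its longest coding transcript, came to 7.18 RPM per kilobase (6.49 to 7.76). Lengths come from GENCODE v29 and may not match the annotation behind the table. The summed level of the 6 pumps was 257 ± 2.76 RPM at 2 mM, 258 ± 9.26 at 2 mM with gemcitabine, 260 ± 7.42 at 40 mM and 254 ± 2.79 at 40 mM with gemcitabine (SD, n = 3 each), with overlapping ranges. ABCC2 (mean 93.3 RPM) and ABCC5 (75.6 RPM) weigh most in this sum, so it says little about low pumps such as ABCC3 (7.32 RPM).

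**Figure D1:**
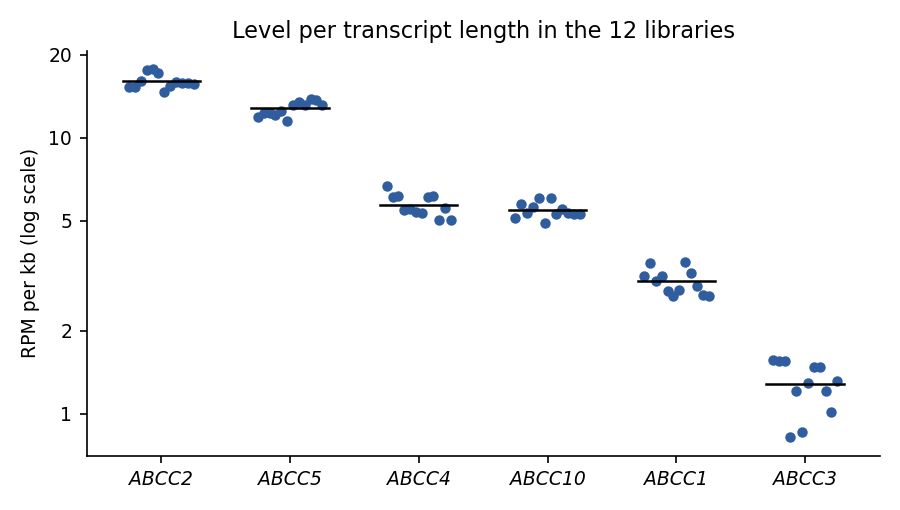
Level of each pump in RPM per kilobase of its longest coding transcript, with 1 point per library and 12 libraries per pump. ABCC2 lies highest at 14.7 to 17.8, ABCC3 lowest at 0.823 to 1.57, and only the ranges of ABCC4 and ABCC10 overlap.

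ABCC5 (MRP5), which exports cyclic nucleotides and nucleotide analogues, was the pump called higher at 40 mM glutamine. Without gemcitabine it measured 70.2, 72.9 and 73.1 RPM at 2 mM and 78.0, 80.1 and 77.6 RPM at 40 mM (replicates 1 to 3 in this order, here and in all lists of values). With gemcitabine the values were 71.8, 73.9 and 68.3 RPM at 2 mM and 81.7, 81.0 and 78.2 RPM at 40 mM. All 6 libraries at 40 mM lay above all 6 at 2 mM. The log2 difference of 40 against 2 mM was 0.12 ± 0.04 (SE, adjusted p = 0.0399) without gemcitabine and 0.17 ± 0.04 (adjusted p = 0.00375) with it. The call without gemcitabine is marginal: it was lost when any 1 of the 6 libraries was left out, with differences of 0.11 to 0.13 and adjusted p of 0.0552 to 0.144, under quantile normalization (0.12, adjusted p = 0.0513) and when only the 2 groups compared were fitted (0.12, adjusted p = 0.0665). With gemcitabine it held in 16 of 16 alternatives. Averaged over both drug conditions, a comparison chosen after seeing the data, ABCC5 was 0.15 ± 0.03 higher at 40 mM (adjusted p = 0.00029).

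No difference of ABCC5 with gemcitabine passed the test. Drug against none gave -0.01 at 2 mM (95% interval -0.10 to 0.07) and 0.03 at 40 mM (-0.06 to 0.12), with adjusted p of 0.824 and 0.633, and the groups overlapped at both levels.

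ABCC4 (MRP4), which exports cyclic nucleotides, prostaglandins and nucleotide analogues, fell with gemcitabine. At 2 mM its values were 39.1, 35.7 and 36.2 RPM without and 32.2, 32.3 and 31.5 RPM with the drug. At 40 mM they were 31.4, 35.7 and 36.1 RPM without and 29.4, 32.5 and 29.4 RPM with it. The groups were separate at 2 mM and overlapped at 40 mM, where replicate 1 without drug was below replicate 2 with drug. The log2 change was -0.20 ± 0.06 (SE, adjusted p = 0.0122) at 2 mM and -0.17 ± 0.06 (adjusted p = 0.038) at 40 mM. Both calls were lost when single libraries were left out. At 2 mM the call was lost without replicate 1 of the untreated group (-0.16, adjusted p = 0.083, against 0.0067 to 0.083 over 16 alternatives). At 40 mM it was lost without untreated replicate 2 (-0.14, adjusted p = 0.129), untreated replicate 3 (-0.14, 0.164), treated replicate 1 (-0.15, 0.128) or treated replicate 3 (-0.15, 0.126), and it was called in 10 of 16 alternatives, whose adjusted p ran from 0.00833 to 0.164. Averaged over both glutamine levels, a comparison chosen after seeing the data, the change was -0.19 ± 0.05 (adjusted p = 0.000862). For 40 against 2 mM glutamine, ABCC4 gave -0.10 without drug (95% interval -0.23 to 0.02, adjusted p = 0.273) and -0.07 with it (-0.20 to 0.06, adjusted p = 0.452).

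**Figure D2:**
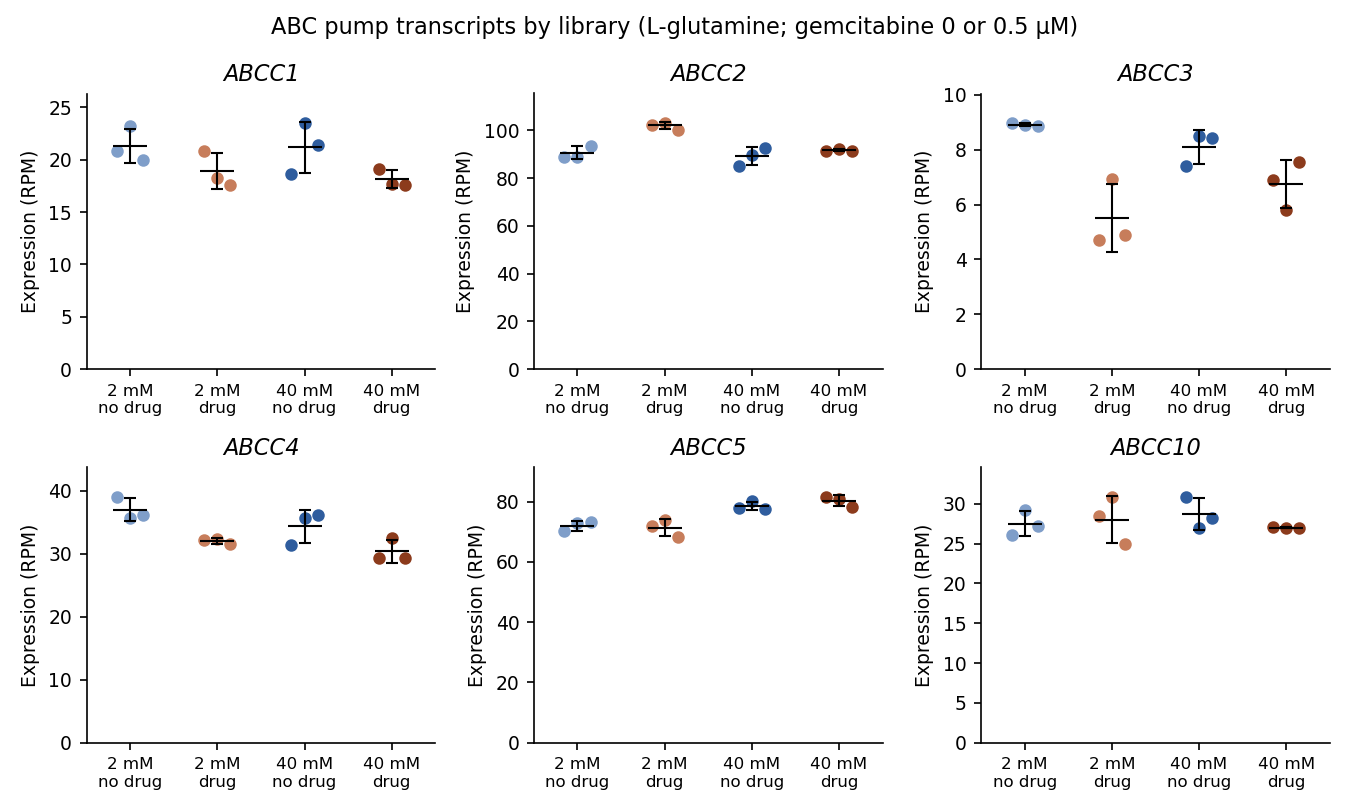
Level of each of the 6 pumps in RPM in every library, by glutamine and gemcitabine group, with 3 libraries per group. ABCC5 lies higher at 40 mM in all 6 libraries, and ABCC3 falls from 8.86 to 8.97 RPM in the untreated 2 mM group to 4.7 to 6.92 RPM with gemcitabine.

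ABCC3 (MRP3), which sends bile acids and glucuronides across the basolateral membrane, had the largest change of the 6 pumps in any of the 4 pairwise comparisons. At 2 mM glutamine its values were 8.97, 8.91 and 8.86 RPM without and 4.70, 6.92 and 4.90 RPM with gemcitabine. The SD of the untreated values was 0.661% of their mean, below the 6.5% to 7.1% expected from read counts alone. All treated libraries were below all untreated ones, and treated replicate 2 was the highest of its group. The log2 change was -0.62 ± 0.12 (SE, adjusted p = 0.000136), which is a ratio of 0.649 in RPM + 1. Mean levels were 8.91 RPM without and 5.51 RPM with the drug. The change was called in 16 of 16 alternatives, between -0.77 and -0.45. At 40 mM the values were 7.40, 8.48 and 8.43 RPM without and 6.91, 5.80 and 7.54 RPM with the drug, and the groups overlapped. There the difference was -0.24 ± 0.12 (95% interval -0.48 to 0.01) and did not pass (adjusted p = 0.148). ABCC3 is the least covered of the pumps, with 123 to 239 reads per library.

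Glutamine gave no called difference in ABCC3. Without drug, 40 against 2 mM was -0.13 (95% interval -0.37 to 0.12, adjusted p = 0.524), although the 3 libraries at 40 mM were all below those at 2 mM. With drug it was 0.26 (0.01 to 0.51, adjusted p = 0.128). Leaving out replicate 2 of the 2 mM group with drug brought a call (0.41, adjusted p = 0.0233, against 0.0233 to 0.419 over 16 alternatives).

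ABCC2 (MRP2), the apical pump that carries bilirubin glucuronides and glutathione conjugates into bile in the liver, was higher with gemcitabine at 2 mM glutamine. Its values there were 89.0, 88.9 and 93.6 RPM without and 102, 103 and 100 RPM with the drug. At 40 mM they were 85.2, 89.8 and 92.5 RPM without and 91.4, 92.1 and 91.3 RPM with it. The treated 2 mM group lay above all 9 other libraries, which overlapped one another. The log2 change with drug was 0.17 ± 0.04 (SE, adjusted p = 0.00118) at 2 mM, called in 16 of 16 alternatives, and 0.04 ± 0.04 (95% interval -0.04 to 0.12, adjusted p = 0.499) at 40 mM. With drug, ABCC2 was lower at 40 than at 2 mM, with a log2 difference of -0.15 ± 0.04 (adjusted p = 0.00586), a call lost with library totals as the scaling (-0.10, adjusted p = 0.0786, against 0.0023 to 0.0786 over 16 alternatives) and kept with median-of-ratios size factors (-0.15, adjusted p = 0.00604) and quantile normalization (-0.13, adjusted p = 0.0202). Without drug the difference was -0.02 (-0.10 to 0.06, adjusted p = 0.763). The authors' scaling had divided the RPM of the treated 40 mM group by 1.0263 to 1.0292 and those of each remaining library by 1.002 or less.

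ABCC1 (MRP1), a pump of glutathione conjugates and of anthracyclines, gave lower values with gemcitabine that passed the test in neither pairwise comparison. At 2 mM it measured 20.8, 23.2 and 20 RPM without and 20.8, 18.3 and 17.6 RPM with the drug. At 40 mM it measured 18.6, 23.5 and 21.4 RPM without and 19.1, 17.7 and 17.6 RPM with it. The groups overlapped at both levels. The log2 difference was -0.17 ± 0.08 (SE, 95% interval -0.34 to 0.01, adjusted p = 0.131) at 2 mM and -0.21 ± 0.08 (-0.38 to -0.03, adjusted p = 0.0627) at 40 mM. Leaving out replicate 1 of the untreated 40 mM group brought a call there (-0.29, adjusted p = 0.0139, against 0.0139 to 0.304 over 16 alternatives). Averaged over both glutamine levels, a comparison chosen after seeing the data, ABCC1 was lower with gemcitabine (-0.19 ± 0.06, adjusted p = 0.011). This call was kept in 21 of 21 alternatives (adjusted p of 0.00216 to 0.0457). Glutamine differences were -0.01 (-0.18 to 0.16, adjusted p = 0.944) without and -0.05 (-0.22 to 0.12, adjusted p = 0.715) with drug.

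ABCC10 (MRP7), known for transporting taxanes and some nucleoside analogues, passed in no comparison. Its 12 values ran from 24.9 to 30.9 RPM, with group means of 27.5 ± 1.58, 28.0 ± 2.96, 28.7 ± 1.99 and 27.0 ± 0.0776 RPM (SD, n = 3, in the order 2 mM without and with drug, 40 mM without and with drug). In the last of these groups the SD was 0.288% of the mean, below the 3.8% to 3.9% expected from read counts alone. Gemcitabine gave 0.02 (95% interval -0.12 to 0.17) at 2 mM and -0.08 (-0.23 to 0.06) at 40 mM, and glutamine gave 0.06 (-0.09 to 0.20) without and -0.05 (-0.19 to 0.10) with drug, with adjusted p between 0.423 and 0.845.

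**Figure D3:**
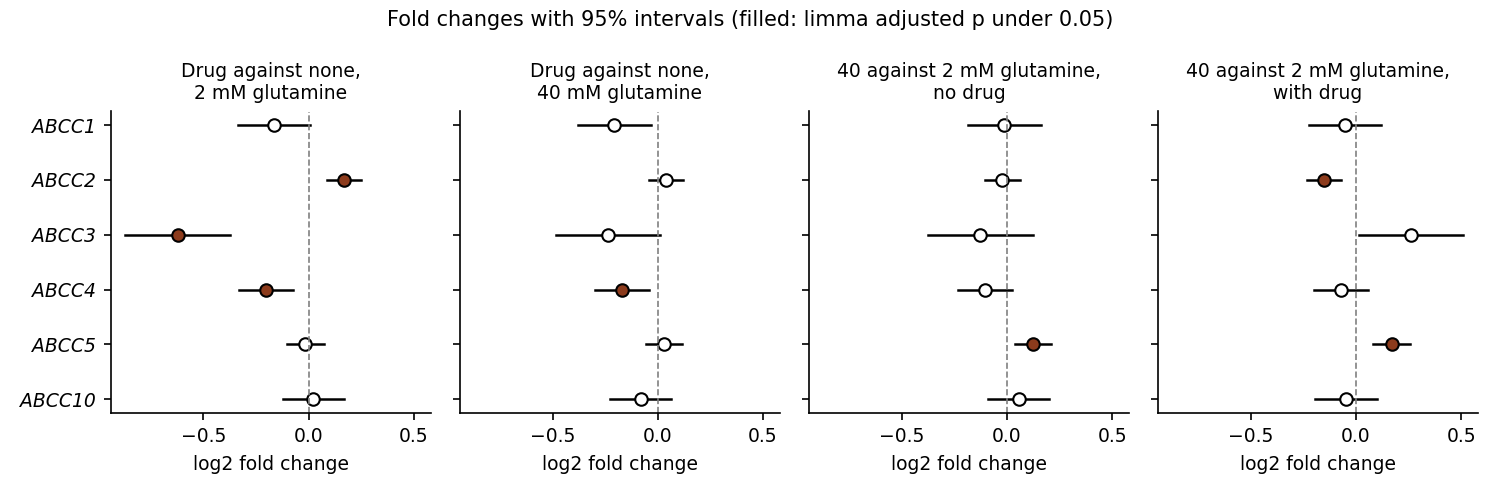
Log2 difference with 95% confidence interval for each pump in the 4 pairwise comparisons, from limma over all 12 libraries. The largest differences are those of ABCC3, at -0.62 for gemcitabine at 2 mM, and the ABCC10 intervals in the 4 pairwise comparisons all include 0.

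The called pumps were counted beside the share of all tested genes called in the same direction. For 40 against 2 mM glutamine without drug, 1 of 6 was higher and 0 lower (limma; 0 lower also at an unadjusted p under 0.05 and with voom on library totals), where 8.41% of all tested genes were higher and 9.12% lower. With drug, 1 was higher and 1 lower (0 lower with voom on library totals), where 8.62% of all genes were higher and 13.0% lower. For gemcitabine at 2 mM, 1 was higher and 2 lower, against 17.5% and 17.1% of all genes. At 40 mM, 0 were higher (0 at an unadjusted p under 0.05, 0 with voom on library totals) and 1 lower (0 with voom on library totals), against 14.1% and 16.2%. All these shares are of limma calls, and those at an unadjusted p under 0.05 or with voom are not given here. In the averaged comparisons, chosen after seeing the data, 1 was higher and 3 lower with gemcitabine, where 22.0% and 23.2% of all genes were called. With glutamine, 1 was higher (ABCC5) and 1 lower (ABCC2), where 14.6% and 16.9% of all genes were. The averaged ABCC2 call (-0.09 ± 0.03, adjusted p = 0.0187) held in 18 of 21 alternatives, with adjusted p of 0.0111 to 0.202. It was lost with library totals (-0.05, adjusted p = 0.202), without replicate 3 of the untreated 2 mM group (-0.07, adjusted p = 0.0591) and without replicate 1 of the untreated 40 mM group (-0.07, adjusted p = 0.0641). The median size of the 6 differences was 0.08, 0.11, 0.17 and 0.13 in the 4 pairwise comparisons in this order, and 0.09, 0.10, 0.13 and 0.12 over all tested genes. The pairwise comparisons share groups with one another, except the gemcitabine responses at the 2 glutamine levels and the glutamine differences without and with drug, each of which pairs share no library.

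The scaling between libraries bears on these backgrounds. With library totals, 60.8% of called genes were higher for glutamine without drug (48% with the deposited scaling), 67.9% with drug (39.9%; 50.1% under quantile normalization), 63.1% for gemcitabine at 40 mM (46.6%) and 67% in the glutamine average (46.3%). No pump call reversed direction under any alternative that was run.

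The interaction is the gemcitabine response at 40 mM minus that at 2 mM. It called 0 of 6 pumps with limma, where 0.727% of all genes were called higher and 1.47% lower. With voom on library totals or median-of-ratios size factors it also called 0 pumps, and the share of all genes is not given here. At an unadjusted p under 0.05, for which the share of all genes is not given here, 1 pump was higher and 1 lower. These were ABCC3, at 0.39 ± 0.17 (SE, 95% interval 0.04 to 0.74, adjusted p = 0.27), and ABCC2, at -0.13 ± 0.06 (-0.24 to -0.01, adjusted p = 0.26). The responses of these pumps at 2 and 40 mM are therefore not shown to differ. For ABCC4 and ABCC5, the intervals were -0.15 to 0.21 and -0.08 to 0.17. With library totals, 58.8% of the interaction calls over all genes were higher, and with quantile normalization 54.7%, against 33.1% with the deposited scaling.

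Of 41 other ABC transporter genes listed, 23 have a row and 21 were tested. With gemcitabine at 2 mM, 6 were higher and 7 lower, where 17.5% and 17.1% of all genes were called, and at 40 mM 2 were higher and 8 lower (14.1% and 16.2% of all genes). For glutamine, 5 were higher and 1 lower without drug (8.41% and 9.12%), and 4 and 1 with it (8.62% and 13.0%). Gemcitabine lowered ABCA3, a lipid transporter of lamellar bodies, from 88.3 to 66.6 RPM at 2 mM and from 106 to 78.0 RPM at 40 mM (log2 changes of -0.40 and -0.43, adjusted p = 1.18e-08 and 2.71e-09). ABCA7, a phospholipid transporter, fell by 0.39 and 0.45 (adjusted p = 1.71e-07 and 8.03e-09), and ABCA6 by 0.67 and 0.68 (adjusted p = 1.7e-05 and 1.52e-05). These 3 genes were all higher at 40 mM glutamine, with ABCA6 at 0.46 both without and with drug. ABCA10 rose with gemcitabine, by 0.27 and 0.37 (adjusted p = 1.01e-05 and 4.6e-08). The median difference of the 21 genes was -0.14 and -0.05 for gemcitabine at 2 and 40 mM, against -0.09 and -0.13 for the 6 pumps and -0.001 and -0.005 for all tested genes.

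**Figure D4:**
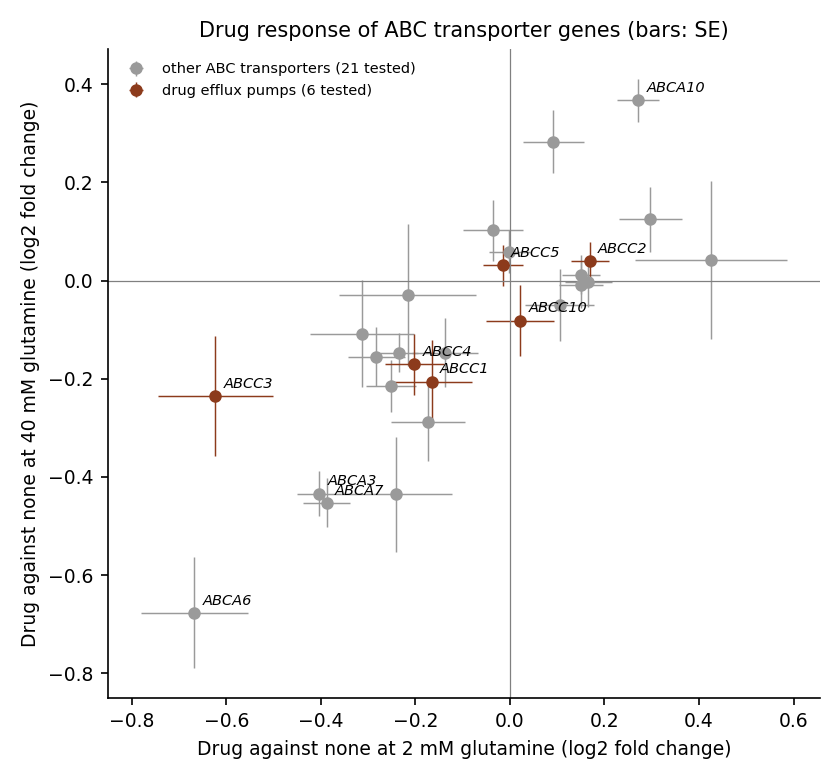
Gemcitabine response of each tested ABC gene as a log2 difference at 2 mM glutamine (x axis) and at 40 mM (y axis), with the 6 pumps and the 21 other ABC transporters marked. ABCC3 stands at -0.62 and -0.24, and ABCA6 at -0.67 and -0.68.

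Glutathione conjugates are substrates of several of these pumps. Of 27 genes of glutathione synthesis and conjugation, 22 were tested, and 2 were higher and 2 lower with gemcitabine at each glutamine level, where 17.5% and 17.1% of all genes were called at 2 mM and 14.1% and 16.2% at 40 mM. Glutamine gave 1 higher and 3 lower without drug (8.41% and 9.12% of all genes) and 2 and 3 with it (8.62% and 13.0%). With voom on library totals, 4 were higher with gemcitabine at 40 mM and 4 for glutamine with drug. The share of all tested genes called with voom is not given here. Under that setting, 63.1% and 67.9% of all called genes were higher in these comparisons, against 46.6% and 39.9% with the deposited scaling. The median difference of the 22 genes lay between -0.01 and 0.03 in the 4 comparisons. GSTP1, a glutathione transferase, averaged 500, 456, 452 and 407 RPM in the order 2 mM without and with drug, 40 mM without and with drug, and fell in all 4 comparisons (log2 changes of -0.13 to -0.17, adjusted p of 4.19e-05 to 0.000409). GSR, which regenerates reduced glutathione, was lower at 40 mM glutamine, with log2 differences of -0.20 without and -0.19 with drug (adjusted p = 0.000467 and 0.000559). CHAC2, an enzyme that degrades glutathione, rose by 0.36 with gemcitabine at 2 mM (adjusted p = 0.00121). GGT7, of the gamma-glutamyltransferase family, rose by 0.54 with gemcitabine at 40 mM (adjusted p = 0.00262).

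Of 21 listed regulators of pump genes, 15 were tested, and 4 were lower with gemcitabine at each glutamine level, where 17.1% of all genes were lower at 2 mM and 16.2% at 40 mM. In the other direction, 1 was higher at 2 mM and 2 at 40 mM, where 17.5% and 14.1% of all genes were. PPARA, a nuclear receptor that binds fatty acids, fell by 0.49 and 0.52 (adjusted p = 8.17e-08 and 2.15e-08). SP1, a factor that binds GC boxes, fell by 0.14 and 0.23, and ARNT, the partner of the dioxin receptor, by 0.27 and 0.20 (adjusted p of 3.77e-05 to 0.00557 over these 4 values). Glutamine at 40 mM gave 2 higher and 2 lower without drug (8.41% and 9.12% of all genes) and 1 and 1 with it (8.62% and 13.0%). With voom on library totals, 4 regulators were higher with gemcitabine at 40 mM and 4 for glutamine with drug. The share of all tested genes called with voom is not given here. Under that setting, 63.1% and 67.9% of all called genes were higher in these comparisons, against 46.6% and 39.9% with the deposited scaling. The median difference of the 15 genes lay between -0.003 and 0.01 in the 4 comparisons. MAFK, a small MAF protein that pairs with NRF2 at antioxidant response elements, was lower at 40 than at 2 mM glutamine. Its log2 differences were -0.34 without and -0.38 with drug (adjusted p = 0.00111 and 0.000207). Of the other small MAF genes listed, MAFG gave -0.03 and -0.01 (adjusted p = 0.723 and 0.948). MAFF gave -0.30 without (adjusted p = 0.0161) and -0.10 with drug (adjusted p = 0.453).

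Of 13 genes listed for the placement of pumps in the membrane, 9 were tested, and limma called 0 higher in the 4 pairwise comparisons. It called 3 lower for glutamine without drug and 4 with drug, where 9.12% and 13.0% of all genes were lower, and 3 lower for gemcitabine at each glutamine level (17.1% and 16.2%). At an unadjusted p under 0.05, 1 was higher, with gemcitabine at 2 mM. Voom on library totals called 1 higher for glutamine with drug and 1 for gemcitabine at 2 mM, and 2, 3, 2 and 1 lower in the order glutamine without and with drug, gemcitabine at 2 and 40 mM. The median difference of the 9 genes in that order was -0.10, -0.09, -0.02 and -0.08, against 0.002, -0.002, -0.001 and -0.005 over all tested genes. EZR (ezrin), which links membrane proteins to actin, measured -0.14 and -0.19 for 40 against 2 mM (adjusted p = 0.00077 and 6.3e-06) and -0.08 for gemcitabine at 40 mM (adjusted p = 0.0399). SLC9A3R2, a scaffold protein, measured -0.24 and -0.29 for glutamine (adjusted p = 0.00119 and 8.02e-05), and its relative SLC9A3R1 -0.30 with drug (adjusted p = 4.15e-05). RDX (radixin), a relative of ezrin known for holding ABCC2 at the canalicular membrane of hepatocytes, fell by 0.18 and 0.10 with gemcitabine (adjusted p = 0.000147 and 0.0334). At 40 mM the RDX groups overlapped, with means of 208 RPM without and 194 RPM with the drug. In the interaction, 0 genes of these 4 lists were called with limma and 0 with voom on library totals. At an unadjusted p under 0.05, there were 1 higher and 3 lower among the other ABC transporters, 0 among the glutathione genes, 1 and 1 among the regulators, and 0 and 1 among the placement genes. The shares of all genes at an unadjusted p under 0.05 and with voom are not given here.

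For the 4 pumps called in a pairwise comparison (ABCC2, ABCC3, ABCC4 and ABCC5), the 3 tested genes with the most similar profile were sought by the root mean square log2 difference over the 12 libraries, each gene centred on its own mean. ABCC2 lay closest to PRR14 (0.03), WDR43 (0.03) and SYNCRIP (0.03), against 0.15 for the median gene. ABCC5 lay closest to RP2, TOLLIP and SNX19 (0.04 each, median gene 0.15), and ABCC4 to C16orf72, MKLN1 and ATP2B4 (0.05 each, median gene 0.17). ABCC3, whose own spread of 0.27 around its mean exceeded the 0.08 to 0.12 of the other 3, lay closest to LOC100129503 (0.11), ING4 (0.12) and BTC (0.12), against 0.30 for the median gene.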

How the data were processed

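Per the labels, total RNA was purified on columns and sequenced commercially. The authors deposited a table of log2 values. From the values, each deposited log2 value is log2(RPM + 1) after scaling between libraries (factors 0.9794 to 1.0292), and 100% of values gave whole reads within 0.05 read. The aligner, counting program, strand setting and genome build were not given in the sources used here. Columns were matched to samples by the names in their titles.

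Genes with at least 1 RPM in at least 3 of 12 libraries were tested (12789, with 2301 left out) with limma 3.58.1 in R 4.3.3. The fit used 4 group means, moderation with a trend, two-sided tests, and Benjamini-Hochberg adjustment over all tested genes at 0.05. Within groups, the chi-square of reads per degree of freedom was 2.38 to 5.64, so each library counts once. The fitting script was tested on simulated data. Alternatives were voom on recovered reads with library totals or median-of-ratios size factors, quantile normalization, pseudocounts of 0.5 and 4 RPM, no filter or 5 RPM, robust moderation, a replicate block, only the 2 groups compared, and leaving out each library.

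Named genes are all pumps, up to 4 genes of each other list with the smallest adjusted p in a pairwise comparison, and the 3 nearest genes of each pump called in a pairwise comparison or the interaction. MAFG and MAFF were named beside MAFK after their values were seen. Members and lists were chosen with earlier results of these data known. The 2 averaged comparisons were added after seeing the data.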

Additional observations from a re-analysis of the deposited data

How the results depend on the processing

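Of 762 pump values under an alternative setting, 741 kept their side of the threshold, 19 lost a call, 2 gained one and 0 calls reversed. Of the values that were not called, 27 changed sign. For 40 against 2 mM glutamine without drug, 1 pump was called, against 0 under quantile normalization, 0 with only the 2 groups compared, and 0 to 0 when each library was left out. With drug, 2 were called, against 1 with library totals. For gemcitabine at 40 mM, 1 was called, against 0 with library totals, 0 with only the 2 groups, and 0 to 2 when each library was left out. In the averaged glutamine comparison, 2 were called, against 1 with library totals and 1 to 2 when each library was left out. ABCC4 for gemcitabine at 40 mM gave -0.14 (adjusted p = 0.117) with library totals. Over all genes the interaction called 281, and 155 to 366 when each library was left out. Library totals, which leave out the authors' scaling, moved the median of all genes by at most 0.06. The cause of the changed calls was not tested.

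Replicate numbers did not pair the libraries: the correlation of same-numbered deviations lay between -0.08 and 0.05 in 18 pairs of libraries, 0 of them over 0.1. A fit with a replicate block left the call of all 42 pump values as it was, and over all genes it called 306 in the interaction. Depth limits ABCC3 most, with 123 to 239 reads per library.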

Other observations

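ABCC11, another ABCC pump that exports cyclic nucleotides and nucleotide analogues, has a row but was too low to test. It reached 1 RPM in 1 of the 12 libraries, with 0.0414 to 1.22 RPM and a median of 0.249 RPM, from 1 to 29 reads. ABCA9 was likewise untested, at 0.0929 to 0.587 RPM.

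NFE2L2 and KEAP1 were chosen after their values were seen. NFE2L2, which encodes the antioxidant factor NRF2, was called in none of the 4 pairwise comparisons by limma. Its differences ran from 0.00 to 0.11, with adjusted p of 0.0617 to 0.988. For glutamine with drug (0.110, limma unadjusted p = 0.0239) and gemcitabine at 40 mM (0.114, unadjusted p = 0.0199), the groups did not overlap. In the remaining comparisons they overlapped, with differences of 0.002 and 0.005. Whether NFE2L2 is called with library totals is not given here. KEAP1, which marks NRF2 for degradation, was higher at 40 mM glutamine without drug (0.24, adjusted p = 0.00119) and with gemcitabine at 2 mM (0.21, adjusted p = 0.00258), while the other two pairwise differences were 0.06 and 0.02 and did not pass.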
